A study of Mus musculus with 4 samples.

Results

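Rag1, Rag2, Dntt, Ikzf1, Ikzf3, Tcf3, Foxo1, Notch1, Satb1 and Bcl11a are 10 genes that build or prepare the antigen receptors of lymphocytes, and they were followed on 4 one-colour Agilent mouse microarrays. Probes were taken as theirs when the transcript accession printed on the array maps through RefSeq to the symbol. That gave 17 probes of 55681, for 10 of 21154 named genes. The brightest probe of all 10 genes was well above background on all 4 arrays.

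The RAG1 and RAG2 proteins form the recombinase that cuts DNA at the V, D and J segments of immunoglobulin and T-cell receptor genes, and terminal transferase, the product of Dntt, adds untemplated bases at the joins. Progenitors are primed for these lineages before commitment, with Ikaros (Ikzf1), Aiolos (Ikzf3), the E protein E2A (Tcf3), Foxo1, Satb1 and Bcl11a as transcription or chromatin regulators. The Notch1 receptor directs progenitors to the T lineage. Part of this program already runs in multipotent progenitors, while cells that turn to the erythroid and megakaryocytic lineages reduce some of its genes.

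The cells were bone marrow LSK cells, which are Lineage-negative, c-Kit-positive and Sca-1-positive stem and multipotent progenitors, and MEP cells, the progenitors of red cells and megakaryocytes. The groups were JQ1 MEP, DMSO MEP, JQ1 LSK and DMSO LSK, with 1 array each. All came from C57BL/6 mice, as labelled, that had received JAK2V617F;Ezh2flox/flox;Cre-ERT2 marrow after lethal irradiation of CD45.1+ wild-type hosts, and Ezh2 was deleted before JQ1, a BET bromodomain inhibitor, or its solvent DMSO was given for 2 weeks. Both the JQ1 and the DMSO cells therefore carry the JAK2V617F/Ezh2Δ/Δ genotype, and no group without these alleles was analysed here. The number of mice behind each array, their age and the promoter that drives Cre-ERT2 are not given in the sources used here.

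Levels are the log2 of the scanner's processed signal relative to the array's 75th percentile, so 0 is the signal at that percentile. Differences are given minus that of the median measured gene of the same comparison, and the uncentred difference of that gene was 0.06 log2 between the LSK arrays, 0.34 between the MEP arrays, 0.07 between the JQ1 arrays (MEP minus LSK) and -0.22 between the DMSO arrays. A gene was called higher or lower when this centred difference reached 1, which is 2-fold. A single array per group leaves no replicate error within a group, and no test was run. A fit that assumes the same JQ1 difference in both cell types would leave 1 residual degree of freedom and was not run. As guides to array error, the software's own error was near 10.1% of the signal on each array, and 2 probes of the same gene differed with an SD of 0.35 log2 between the LSK arrays, 0.51 between the MEP arrays, 0.37 between the JQ1 arrays and 0.49 between the DMSO arrays. Neither guide covers mice, sorts, RNA isolation or labelling. In sorted bulk RNA, fewer cells of a type and less RNA per cell cannot be told apart.

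Of the MEP and erythroid markers 10 of 11 measured genes were higher in MEP under JQ1 and 9 of 11 under DMSO, and of the LSK markers 5 of 9 were lower in MEP under JQ1 and 3 of 10 under DMSO. The exceptions past 2-fold were Slamf1, an LSK marker that was 2.26-fold and 5.1-fold higher in JQ1 and DMSO MEP, and the globin gene Hbb-bt, 2.74-fold lower in DMSO MEP. Ly6a, which encodes Sca-1, read 0.21 and -0.32 on the JQ1 and DMSO MEP arrays and 4.28 and 4.49 on the JQ1 and DMSO LSK arrays, and the erythroid factor Klf1 read 3.05 and 1.97 in MEP and -1.76 and -1.61 in LSK. Ezh2 read 3.69 and 3.31 on the JQ1 and DMSO MEP arrays and 3.42 and 3.36 on the JQ1 and DMSO LSK arrays. Where its probe lies relative to the removed exons was not determined, so these readings are no check of the deletion. Between 45.2% and 53.2% of the probes were well above background. The DMSO MEP array stood apart, with correlations of 0.973 to 0.976 with the other arrays over 23013 probes, where the other pairs had 0.979 to 0.991. Each comparison of the MEP arrays, and of the DMSO arrays, rests on that array and has no value without it.

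The promoters of the 3 recombination enzymes are shown because these genes gave the largest differences below and because 2 of the regulators described, Tcf3 and Ikzf1, encode proteins that bind short known motifs. The sequences are the 250 bases before the transcription start from RefSeq on GRCm38.p6, at chr2:101649533-101649782 (minus strand) for Rag1, chr2:101624462-101624711 (plus strand) for Rag2 and chr19:41029025-41029274 (plus strand) for Dntt. Capitals mark the E-box CANNTG, the core bound by E proteins, and GGGAA, the core bound by Ikaros, searched on both strands.
Rag1: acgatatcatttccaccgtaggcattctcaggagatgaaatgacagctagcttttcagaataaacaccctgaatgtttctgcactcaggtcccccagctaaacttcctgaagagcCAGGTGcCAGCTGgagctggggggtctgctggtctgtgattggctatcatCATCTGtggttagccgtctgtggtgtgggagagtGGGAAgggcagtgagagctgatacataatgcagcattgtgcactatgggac
Rag2: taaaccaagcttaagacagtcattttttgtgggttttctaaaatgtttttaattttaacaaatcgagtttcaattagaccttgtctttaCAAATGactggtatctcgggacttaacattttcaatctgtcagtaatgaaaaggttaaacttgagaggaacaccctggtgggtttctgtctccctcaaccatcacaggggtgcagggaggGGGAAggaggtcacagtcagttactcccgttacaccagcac
Dntt: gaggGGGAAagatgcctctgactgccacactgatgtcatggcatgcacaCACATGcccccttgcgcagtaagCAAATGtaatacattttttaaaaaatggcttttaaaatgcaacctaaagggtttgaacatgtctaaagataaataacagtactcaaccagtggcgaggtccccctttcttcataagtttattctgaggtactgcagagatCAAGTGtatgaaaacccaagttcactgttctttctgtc
The Rag1 promoter held 3 E-boxes, Rag2 held 1 and Dntt held 3, and each of the 3 held 1 GGGAA core, with no overlap between the motifs. The E-box is present in 66.2% and the GGGAA core in 56.2% of 32851 promoters of this length, so either match is common and is a description only. Rag1 and Rag2 lie next to each other on chromosome 2, with 0 protein-coding genes between them in the annotation.

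**Figure D1:**
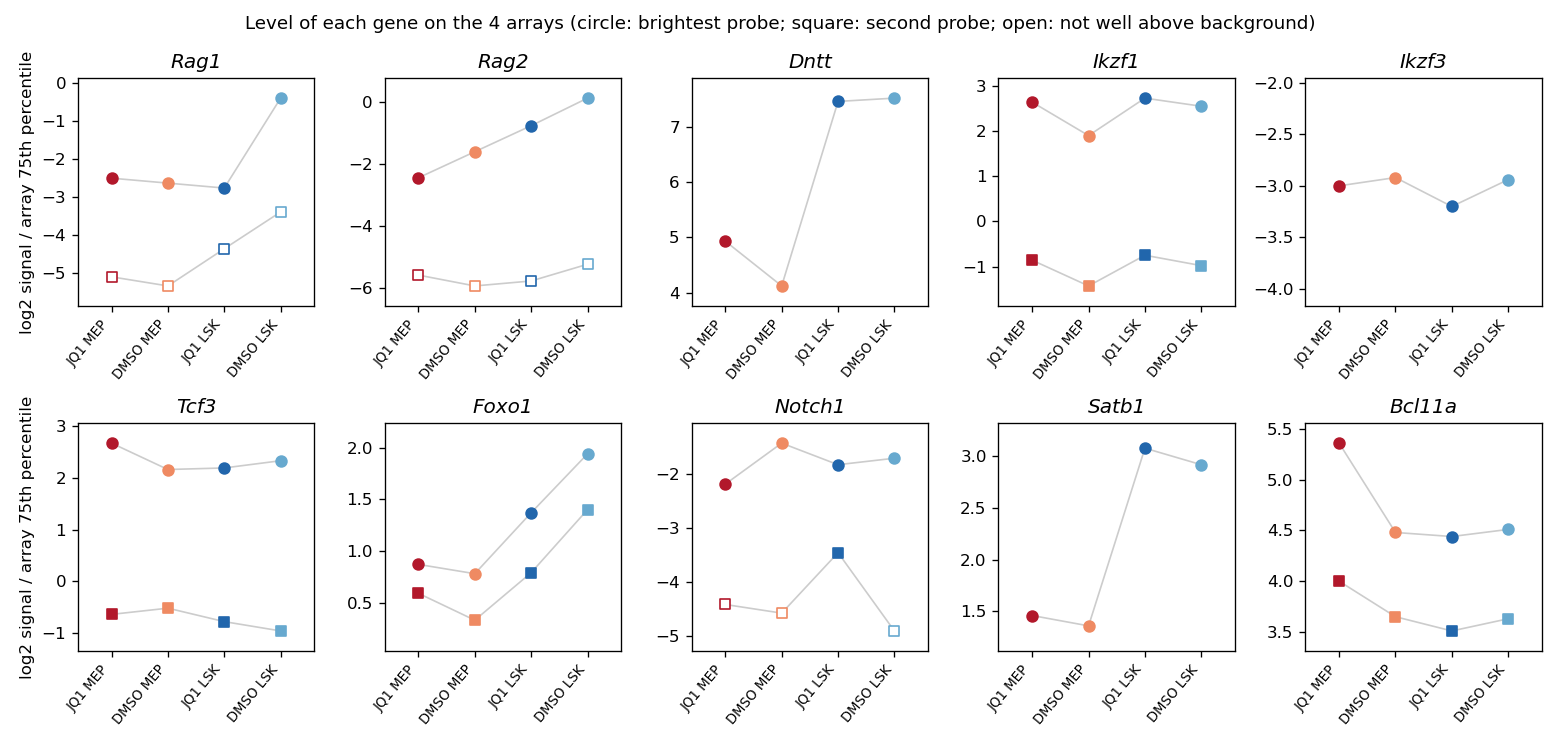
Level of each gene on the JQ1 MEP, DMSO MEP, JQ1 LSK and DMSO LSK arrays, as log2 of the signal relative to the array's 75th percentile (y axes differ between panels). Circles are the brightest probe and squares a second probe, and open symbols are not well above background; Rag1 stands apart on the DMSO LSK array, whereas Dntt and Satb1 are high on both LSK arrays.

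The first question was what the JQ1 course did to these genes in LSK cells. The recombinase subunit gene Rag1 was lower, and no other gene of the 10 reached 2-fold. Rag1 read -2.76 on the JQ1 LSK array and -0.39 on the DMSO LSK array, a centred difference of -2.43 or 5.4-fold. Its probe is spotted in duplicate, with signals of 30.5 and 42.7 on the JQ1 LSK array against 156 and 165 on the DMSO LSK array. The duplicate spots of the arrays do not overlap, and 24 of the 12328 measured genes had a lower difference than Rag1. Its second probe, not above background on either array, read -4.36 under JQ1 and -3.39 under DMSO. Among all measured genes 3.22% were lower and 0.543% higher by the same threshold, beside 1 of 10 and 0 of 10 here.

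Rag2, the partner subunit, read -0.77 on the JQ1 LSK array and 0.12 on the DMSO LSK array. Its centred difference was -0.95 (1.94-fold lower), just short of the threshold, and 427 measured genes had a lower value. A second Rag2 probe, spotted 10 times, was not above background on any array and gives no value. Dntt, by contrast, read 7.46 on the JQ1 LSK array and 7.52 on the DMSO LSK array, a difference of -0.12. The enzymes that act in the same joining reaction thus had unlike differences in LSK, although the differences between genes were not tested.

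By their brightest probes the regulators moved little in LSK. Foxo1, which switches on the Rag genes in B-cell progenitors, read 1.37 under JQ1 and 1.94 under DMSO, a difference of -0.63 (1.55-fold lower). Its second probe gave -0.67. These values exceed the software's error of 0.20 log2 for this pair of readings, but stay below 2-fold. Ikzf1 read 2.73 under JQ1 and 2.55 under DMSO (0.12), and its second probe gave 0.17. Tcf3 gave -0.21 and 0.11 with its 2 probes, Bcl11a -0.13 and -0.18, and Satb1 0.09 with its only probe. Notch1 read -1.83 on the JQ1 LSK array and -1.71 on the DMSO LSK array (-0.18). Its second probe read -3.46 on the JQ1 LSK array, and -4.91 on the DMSO LSK array, where it was not above background. With the mean over probes the Notch1 difference was 0.61. That sign rests on the second probe, which gives no measured difference here. Ikzf3 was dim, at -3.20 and -2.94, and its difference of -0.33 is smaller than the software's error of 0.43. Over the 10 genes the median was -0.20, and the interquartile range of all measured genes ran from -0.18 to 0.15.

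The wider pathway showed which neighbours of Rag1 moved. The 16 genes of V(D)J joining and repair, which complete the reaction that RAG starts, had 0 higher and 0 lower, with a median of 0.09. The 15 genes of other Ikaros family members and of NuRD, a chromatin remodelling complex that associates with Ikaros, likewise had 0 higher and 0 lower (median 0.09). Of 9 measured E protein partners and Id inhibitors 2 were lower. They were Id3, at -1.19 under JQ1 and 0.69 under DMSO (-1.94), and Id2, at 2.97 and 4.08 (-1.18), both of which encode inhibitors of E proteins. The Notch list had 0 of 17 and the Foxo and PI3K-Akt list 0 of 13 past 2-fold.

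Early lymphoid progenitor genes had 6 of 21 measured members lower and 0 higher, with a median of -0.13. The Wnt pathway factor Lef1 read -0.23 under JQ1 and 2.02 under DMSO (-2.31), Irf4 -2.82 and -0.85 (-2.03), the chemokine receptor Ccr7 -0.11 and 1.65 (-1.82), Ly6d 2.26 and 3.85 (-1.66), Irf8 4.60 and 6.01 (-1.47) and Ccr9 -1.43 and -0.24 (-1.25). The other 15 members lay between -0.88 (Il7r, named after its values were seen, at -0.21 under JQ1 and 0.61 under DMSO) and 0.44. Of the B-lineage markers 11 of 12 measured genes were lower in the same comparison, with a median of -2.45. Bank1, above background on the JQ1 LSK but not the DMSO LSK array, went the other way, at -1.98 under JQ1 and -3.26 under DMSO. That is at least 2.32-fold higher. Their summed level, on the linear scale relative to the 75th percentile, was 60.9 on the JQ1 LSK array and 286 on the DMSO LSK array, and Pax5, which defines committed B cells, was not above background on any array. Plasmacytoid dendritic cell markers had 4 of 8 lower (summed levels 325 and 399), of which 3 are also on the early lymphoid list. T-lineage markers had 3 of 8 lower (32.1 and 37.2) and NK markers 3 of 7 (74.3 and 75.5). The part these cell type markers have in the Rag1 value was not tested.

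**Figure D2:**
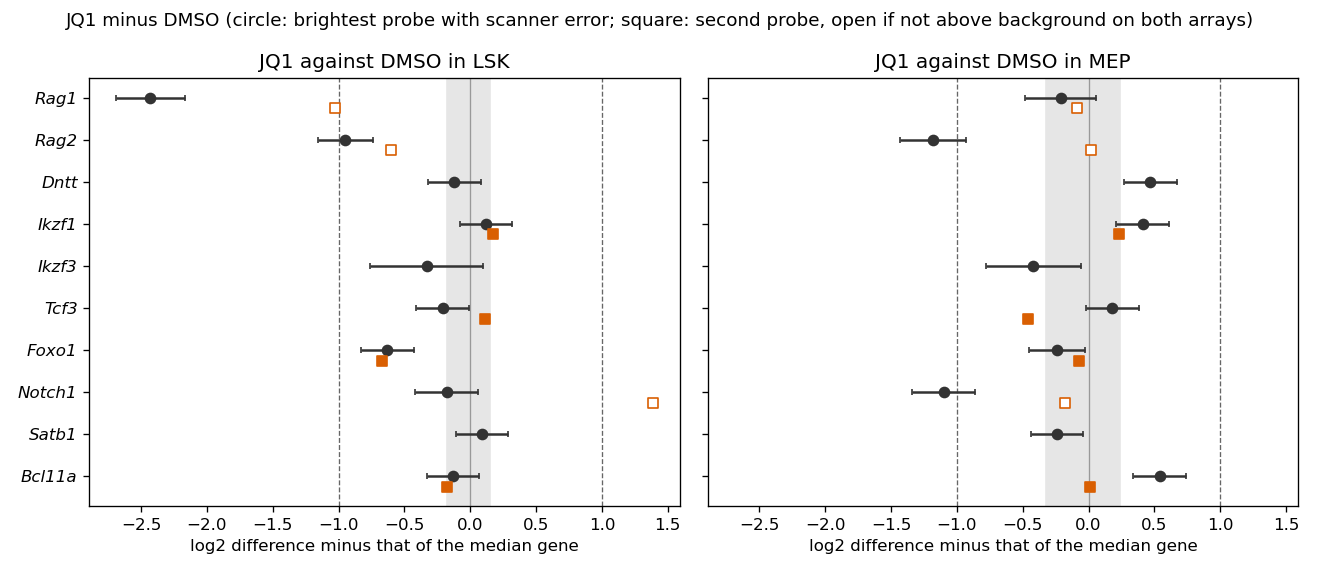
Centred log2 difference of JQ1 minus DMSO in LSK (left) and MEP (right). Circles are the brightest probe with the scanner software's error, squares a second probe (open where it was not above background on both arrays), the grey band is the interquartile range of all measured genes and dashed lines mark 2-fold; Rag1 lies at -2.43 in LSK and -0.21 in MEP, while Rag2 lies at -0.95 and -1.18.

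The same question in MEP cells gave other genes. Rag2 and Notch1 were lower under JQ1 and no gene of the 10 was higher. Rag2 read -2.45 on the JQ1 MEP array and -1.61 on the DMSO MEP array, a centred difference of -1.18 or 2.27-fold. Notch1 read -2.19 under JQ1 and -1.43 under DMSO, a difference of -1.10 or 2.14-fold. Both genes are dim here, with signals of 42.6 for Rag2 and 51.2 for Notch1 on the JQ1 MEP array, where the array's 75th percentile was 233. Without centring, or under quantile normalization, normexp background correction or the mean over probes, neither reached 2-fold. That mean takes in the second probes of both genes, which were not above background on either MEP array. Across all genes 5.77% were lower and 0.980% higher, beside 2 of 10 and 0 of 10.

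Rag1, lower in LSK, read -2.50 on the JQ1 MEP array and -2.63 on the DMSO MEP array, so that its centred difference was -0.21. That is smaller than the software's error of 0.27. Both MEP levels were near the JQ1 LSK level of -2.76, and the DMSO LSK array was the single high one. The difference between the JQ1 values of Rag1 in MEP and in LSK was 2.22 log2, which was not tested and takes in all 4 arrays.

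Dntt and the regulators stayed below 2-fold in MEP. Dntt read 4.93 under JQ1 and 4.12 under DMSO (0.47), Ikzf1 2.64 and 1.90 (0.41) and Bcl11a 5.36 and 4.48 (0.54). The second probe of Ikzf1 gave 0.23. That of Bcl11a, whose transcript accession is that of another Bcl11a transcript, gave 0.01, so the Bcl11a value rests on its brighter probe. Tcf3 had 0.18 with its brighter probe and -0.46 with the other, whose transcript accession is that of another Tcf3 isoform. Foxo1 had -0.24 and -0.07, Satb1 -0.24 and Ikzf3 -0.42. The median of the 10 was -0.22, and the interquartile range of all measured genes ran from -0.32 to 0.24.

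Most of the wider pathway lists were quiet in MEP as well. V(D)J joining and repair had 1 of 16 lower, the Artemis nuclease gene Dclre1c, which opens the hairpin ends made by RAG (-0.40 under JQ1 and 0.37 under DMSO, -1.11). Id3 was the only one of 9 E protein and Id genes past the threshold (-1.81 and -0.51, -1.63). Klf2, a Foxo1 target in lymphocytes, was the only one of 13 on the Foxo list (4.09 and 5.61, -1.85), while 11 of the 13 lay above the median gene. The Notch list had 0 of 17 and the Ikaros and NuRD list 0 of 15. Early lymphoid genes had 3 of 20 measured members lower, Lef1 (-1.92), Mef2c (-1.19) and Ccr7 (-1.01), and 1 higher, the T-cell factor gene Tcf7, which read 0.12 under JQ1 and -2.01 under DMSO (1.79). Above background on 1 of the arrays only were Irf4, at -3.90 under JQ1 and -1.30 under DMSO and at least 6.41-fold lower, and the T-lineage factor gene Bcl11b, at -2.02 and -4.17 and at least 3.51-fold higher.

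The B-lineage markers had 10 of 11 measured genes lower in MEP, with a median of -1.86 and summed levels of 36.9 under JQ1 and 94.8 under DMSO. Bank1 and Ms4a1 were above background on the DMSO MEP but not the JQ1 MEP array. They were at least 2.11-fold and 1.61-fold lower under JQ1. Genes that respond to handling and nuclear RNAs had 11 of 11 lower, with a median of -2.57 and summed levels of 121 on the JQ1 MEP array and 411 on the DMSO MEP array, against 104 and 128 on the JQ1 and DMSO LSK arrays. Rag2 and Notch1 moved in the same direction as both lists, and the part of these lists in their values was not tested.

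**Figure D3:**
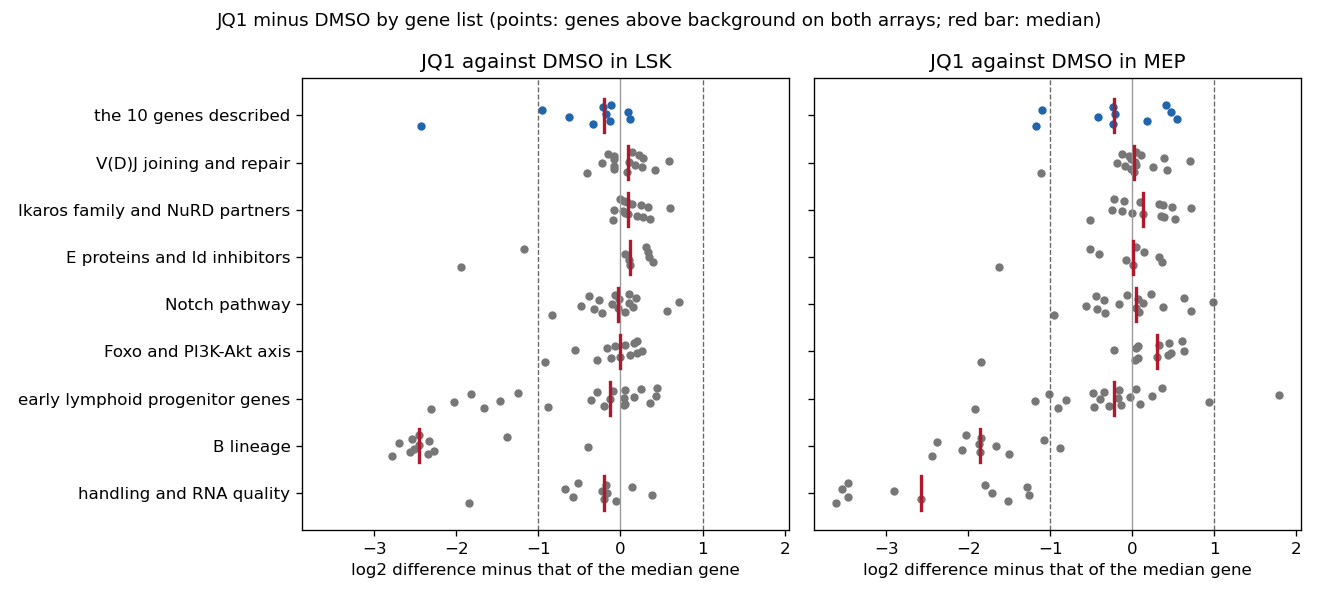
Centred log2 difference of JQ1 minus DMSO in LSK (left) and MEP (right) for the 10 genes described (blue), 6 pathway lists, B-lineage markers and handling genes. Points are genes above background on both arrays and red bars are medians; B-lineage markers lie lowest in LSK (median -2.45) and handling genes lowest in MEP (median -2.57), while the lists of V(D)J joining, Ikaros partners and Notch genes lie near 0.

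The comparison of MEP with LSK describes how the program is distributed between the cell types. Under DMSO the 3 recombination enzymes and Satb1 were lower in MEP, and under JQ1 Dntt, Rag2 and Satb1 were. Dntt had the largest difference of the 10 in both. It read 4.93 in JQ1 MEP and 7.46 in JQ1 LSK, a centred difference of -2.60 or 6.06-fold, and 4.12 in DMSO MEP and 7.52 in DMSO LSK, which is -3.18 or 9.06-fold. Both MEP levels lay below both LSK levels, and how many other genes separate in this way was not counted. Only 25 of 12262 measured genes under JQ1 and 12 of 12407 under DMSO had a lower difference.

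Satb1, a chromatin organiser of lymphoid progenitors and T cells, read 1.46 in JQ1 MEP and 3.08 in JQ1 LSK (-1.69, 3.22-fold lower), and 1.36 in DMSO MEP and 2.92 in DMSO LSK (-1.35, 2.54-fold lower). Rag2 was 3.38-fold lower in MEP under JQ1 (-1.76) and 2.86-fold lower under DMSO (-1.52). It lost the 2-fold call under JQ1 with the mean over probes (-0.82) and under DMSO with spike-in scaling (-0.61), where Satb1 lost it too (-0.43). The mean over probes takes in the second Rag2 probe, which was not above background on any array. The levels of Rag2 ran in steps, with JQ1 MEP lowest, then DMSO MEP, JQ1 LSK and DMSO LSK. Rag1 was 4.06-fold lower in MEP under DMSO (-2.02), but under JQ1 its difference was 0.19 with a software error of 0.29. Across all genes 4.01% were lower and 3.94% higher under JQ1, beside 3 and 0 of 10, and 4.32% were lower and 5.68% higher under DMSO, beside 4 and 0 of 10.

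The other 6 genes did not reach 2-fold between the cell types with the settings described. Foxo1 came nearest under DMSO, at 0.78 in DMSO MEP and 1.94 in DMSO LSK (-0.94, with -0.85 from its second probe), and passed 2-fold with quantile normalization (-1.01) or without centring (-1.16). It had -0.57 and -0.27 under JQ1. Bcl11a, known as the repressor of fetal globin genes in erythroid cells besides its role in lymphoid progenitors, read 5.36 in JQ1 MEP and 4.44 in JQ1 LSK (0.84, second probe 0.42) and 0.19 under DMSO. Ikzf1 had -0.16 under JQ1 and -0.44 under DMSO, and Tcf3 had 0.42 and 0.04. Notch1 had -0.43 under JQ1 and 0.50 under DMSO, and its second probe was above background only on the JQ1 LSK array. Ikzf3 had 0.14 and 0.24, both smaller than the software's errors of 0.41 and 0.38.

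**Figure D4:**
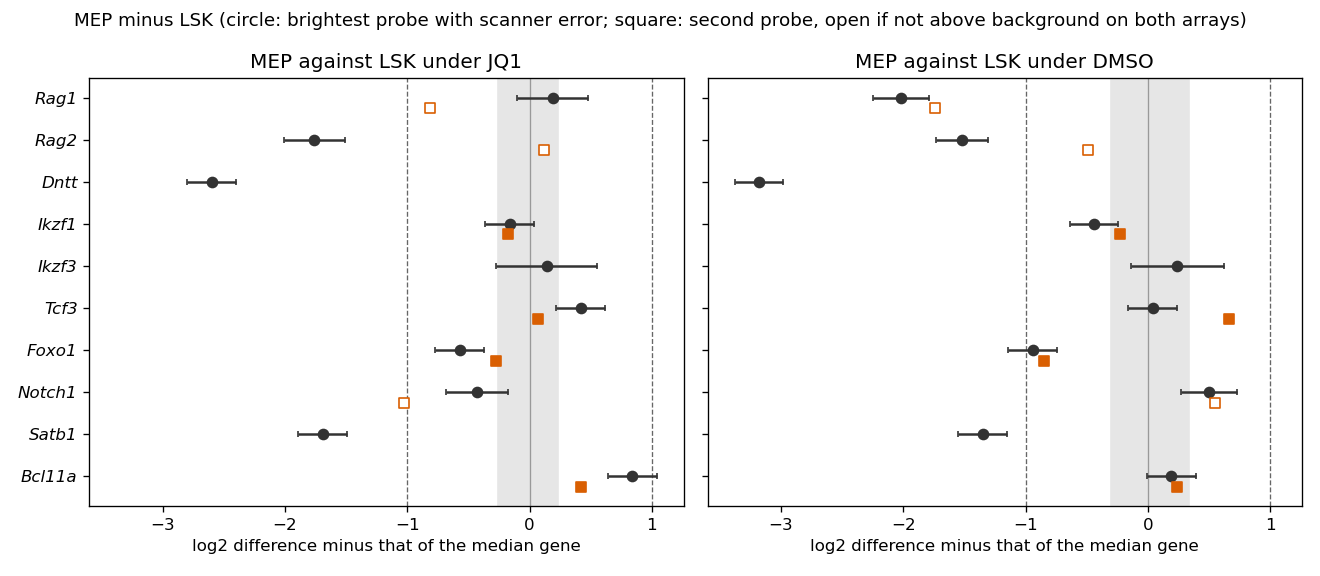
Centred log2 difference of MEP minus LSK under JQ1 (left) and DMSO (right), with symbols as in the plot of JQ1 differences. Dntt (-2.60 and -3.18), Satb1 (-1.69 and -1.35) and Rag2 (-1.76 and -1.52) lie beyond 2-fold in both panels and Rag1 only under DMSO (0.19 and -2.02).

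Of the other genes of early lymphoid progenitors, 4 of 20 were lower and 1 higher in MEP under JQ1, and 6 of 21 were lower and 0 higher under DMSO (medians -0.54 and -0.62), so most members passed in neither direction. The cytokine receptor gene Flt3 read 2.63 in JQ1 MEP and 4.43 in JQ1 LSK (-1.87), and 2.57 in DMSO MEP and 4.50 in DMSO LSK (-1.71). Also lower in MEP under JQ1 were the receptor gene Cd27 (-1.78) and the kinase gene Jak3 (-1.48), and under DMSO Ly6d (-2.03) and Ccr9 (-1.44). Tcf7 was the gene higher in JQ1 MEP, at 0.12 against -2.03 in JQ1 LSK (2.08), and Bcl11b, above background on the JQ1 MEP array only, was at least 3.11-fold higher there (-2.02 against -3.73). Il7r, the receptor of the cytokine that drives B and T progenitors, read -0.18 in JQ1 MEP and -0.21 in JQ1 LSK, and -0.88 in DMSO MEP and 0.61 in DMSO LSK (-1.27).

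Among the other pathway lists few genes differed between the cell types. Polm, which encodes a DNA polymerase of end joining related to terminal transferase, read 1.26 in JQ1 MEP and -1.56 in JQ1 LSK (2.75), and 0.96 in DMSO MEP and -1.22 in DMSO LSK (2.40). Eos (Ikzf4), an Ikaros relative, was also higher in MEP, by 2.38 log2 under JQ1 and 1.59 under DMSO. The remodeller gene Chd3 was lower under JQ1 (-1.12). Notch3 was higher by 1.03 and 1.04. Of the Notch targets, Hes5 was lower under JQ1 (-1.09). Hey1 was above background on both MEP arrays and on no LSK array. It was at least 3.34-fold higher in JQ1 MEP than in JQ1 LSK (-1.99 against -5.69). Under DMSO it was at least 1.22-fold higher in MEP (-3.31 against -5.24). The insulin receptor substrate gene Irs2 was higher by 1.93 and 1.26. Under DMSO alone Klf2 (1.44) and Dclre1c (1.40) were higher and Sesn3 (-1.01) lower. Handling genes and nuclear RNAs were higher in DMSO MEP in 10 of 11 cases (median 2.20) and in JQ1 MEP in 1 of 11 (median 0.05), and their part in the DMSO differences was not tested. Tal1, an E protein partner that drives erythroid genes, was higher by 1.05 and 1.04. The B-lineage markers had 1 of 11 lower in MEP under JQ1 and 9 of 12 under DMSO, and their part in the Rag1 value under DMSO was not tested.

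Of the 10 genes, 5 spanned at least 1 log2 over the arrays. The share of all genes with such a span was not counted, and the span served only to choose these 5. The genes with the most similar profile were looked up for each over 12016 genes and 4 arrays. Similarity was the distance between log2 profiles after removal of each gene's mean. With only 4 arrays many genes share a profile, so this is a description. Rag1 was closest to Pltp (distance 0.10), F13a1 (0.15) and Ly86 (0.32), which were likewise highest on the DMSO LSK array, at -1.27, 5.84 and 4.65. F13a1, made by monocytes and megakaryocytes, and Ly86, a partner of the receptor RP105, are not recombination genes. Dntt was closest to Sytl3 (0.21), the mast cell carboxypeptidase gene Cpa3 (0.28) and Frmpd1 (0.46), and Satb1 to Cyp2j8 (0.07), Gpr65 (0.14) and Sting1 (0.19). Rag2 had Kcng1 (0.11) and Dlk1 (0.26) among its closest genes, and Foxo1 was closest to Napsa (0.03), Pdzd4 (0.06) and Tmem178b (0.06).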

How the data were processed

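RNA from 4 sorted populations (20 ng each, per the labels) was hybridised to 1 Agilent array each. Scans of design 028005 (probe positions on mm9) went through Agilent Feature Extraction 10.7.1.1, per the file headers. Each deposited scanner file gives every spot's processed intensity, background-subtracted and detrended, its error, raw median intensities, and yes or no marks. The authors' deposited table holds a ratio to each array's 75th percentile, of median 0.062 (JQ1 MEP), 0.083 (DMSO MEP), 0.067 (JQ1 LSK) and 0.077 (DMSO LSK). For probes above 1 it equals the scanner signal divided by 1 number per array, within 1% for 100.00% of them. It is linear and not centred, and no source used here names the tool that made it.

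The log2 of the deposited intensity was averaged over replicate spots without an outlier mark and reduced by the array's 75th percentile. Probes were named through transcript accessions and RefSeq (28026 of 55681 with 1 symbol, 27655 with none). A gene was represented by its brightest probe and measured where that probe was well above background on both arrays, that is, in over 50% of its spots. Where only 1 array was above background, the bound set the other at the higher of its own reading and the lowest signal well above background there. The genes and the gene lists were chosen with earlier results of these data known. Of the lists, genes past 2-fold were named, at most 6 for each JQ1 comparison and 3 each way for MEP against LSK. The calculation was run on simulated data with known differences, which checks the arithmetic only and not the error between arrays. With 1 array per group no test was run, and the number of arrays limits the precision. Alternatives were quantile normalization, normexp (limma 3.58.1, offset 50) on median signals, the deposited table, no centring, spike-in scaling, other probe rules and other filters. The mean over probes took in every probe of a gene, whether above background or not. Python 3.11.15 with pandas 2.3.3 was used. One gene of similar profile is not reported here.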

Additional observations from a re-analysis of the deposited data

Results flagged for a closer look

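With 1 array per group, 4 of the 10 genes had a JQ1 difference of opposite sign in MEP and in LSK, and none of these contrasts was tested. The share of all measured genes with opposite signs was not counted, so the 4 of 10 cannot be called unusual. Taking the LSK difference from the MEP difference gave 0.67 log2 for Bcl11a (0.54 in MEP, -0.13 in LSK), 0.59 for Dntt (0.47, -0.12), 0.39 for Tcf3 (0.18, -0.21) and -0.33 for Satb1 (-0.24, 0.09). The second probe of Tcf3 had the opposite order (-0.46 in MEP, 0.11 in LSK), and that of Bcl11a gave 0.01 and -0.18. None of the single values reached 2-fold, and all 4 take in the DMSO MEP array. The LSK values of Bcl11a, Dntt and Satb1 and the MEP value of Tcf3 were smaller than the software's error of 0.20 log2. Without centring on the median gene Satb1 read 0.10 in MEP and 0.15 in LSK, both above 0, and the other 3 kept opposite signs. With spike-in scaling Bcl11a read 0.02 in MEP and 0.51 in LSK, both above 0. Tcf3 (-0.35 and 0.43) and Dntt (-0.05 and 0.52) then had their signs the other way round. Satb1 kept its signs (-0.76 and 0.73).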

How the results depend on the processing

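No paired analysis was possible because each group has 1 array, and no array could be left out. The number of the 10 genes past 2-fold was recomputed under 10 alternatives. For JQ1 in LSK it was 1, and 0 with the second brightest probe (7 genes measured) or among genes above the median signal (6 measured), since Rag1 is measured in neither. The second-probe setting kept the only probe of Dntt, Ikzf3 and Satb1, so only 4 of its 7 genes were read by a second probe. Under the other 8 alternatives Rag1 lay between -2.43 and -1.34. For JQ1 in MEP the count of 2 (Rag2 and Notch1) became 0 under quantile normalization, normexp correction, no centring, the mean over probes, the second brightest probe and the restriction to bright genes. The 2 genes are measured in neither of the last 2. For MEP against LSK under DMSO the count of 4 became 2 under the same probe and signal restrictions, where the Rag genes are not measured. It was 5, all lower, with quantile normalization and without centring, where Foxo1 joined (-1.01 and -1.16). It was also 5 with spike-in scaling, of which 3 were higher (Ikzf3, Notch1 and Bcl11a) and where Rag2 (-0.61) and Satb1 (-0.43) lost the call. For MEP against LSK under JQ1 the count was 2 or 3 throughout, and Rag2 lost its call with the mean over probes (-0.82). Dntt passed 2-fold in MEP against LSK under all 10 alternatives in both treatments, and Satb1 under all 10 with JQ1 and 9 with DMSO. Each of these 2 genes has 1 probe with 1 spot, so the probe rules and the outlier setting reuse the same reading. The deposited table holds the same signal, so the 10 alternatives are not 10 separate checks. Of the 372 single values of the 10 genes, 328 moved by less than the SD between probes of a gene, 44 moved by more and 0 called values changed sign. Spike-in scaling (8 probes) put the median gene at 0.64, -0.52, 0.91 and -0.24 in these 4 comparisons, in the same order. Over all genes, higher and lower counts for JQ1 in LSK were 67 and 397, against 860 and 135 with spike-in scaling. In MEP they were 123 and 724, against 295 and 478 with quantile normalization, 373 and 367 without centring and 35 and 2194 with spike-in scaling. Under DMSO MEP against LSK had 705 and 536, against 675 and 710, 481 and 905, and 5295 and 75, and under JQ1 483 and 492, against 340 and 846 with spike-in scaling. All called genes together numbered 464, 847, 1241 and 975, against 181, 362, 645 and 539 with normexp, 1993, 2902, 3362 and 2895 without the background filter and 105, 210, 419 and 352 among bright genes. Dim probes (Ikzf3, Rag1, Rag2 and Notch1, with errors up to 21.9% of the signal) limit what could be seen.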
